A study of Homo sapiens with 6 samples.

Results

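The genes described here encode the molecular chaperones of the HSP70, HSP110, HSP90, DNAJ and CCT families and the co-chaperones that work with them, in HaCaT cells held under negative pressure. HaCaT is an established, immortalised line of human skin keratinocytes, so all cultures share 1 genetic background. Control cultures were kept at ambient pressure and treated cultures under negative pressure with a 125 mmHg gradient, both for 12 h, with 3 cultures in each group that the labels call biological replicates. Each culture gave total RNA for 1 Affymetrix expression array, and the study's title places the comparison in the disassembly of adherens junctions, the contacts between epithelial cells. Members were chosen by gene symbol, with earlier results of these data known, leaving out 6 chaperones of the endoplasmic reticulum. They were HSP70 and HSP110 genes, cytosolic HSP90 genes, the DNAJA, DNAJB and DNAJC genes, CCT genes, HSPD1, HSPE1 and a named set of co-chaperones. The platform listed 77 such genes, of which 70 had a probe set annotated to that gene alone, among 19775 genes measured in all. The other 7, HSPA1A, HSPA1B, HSPA8, TCP1, DNAJC25, CCT6P1 and CCT6P3, were listed only on probe sets shared with another gene, and AHSA1 was not found in the annotation used here. No filter on low signal was applied, so the 70 members were all tested.

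Chaperones bind unfolded or partly folded proteins and keep them from aggregating while they fold. HSP70 proteins hold short exposed stretches of a client in a cycle driven by ATP: J-domain proteins of the DNAJ families deliver clients and start ATP hydrolysis, and nucleotide exchange factors such as the HSP110 and BAG proteins release them. HSP90 takes over clients such as kinases and steroid receptors late in folding with its own co-chaperones, whereas the CCT ring encloses newly made actin and tubulin, and the HSPD1 and HSPE1 chamber folds proteins inside mitochondria. In stressed cells the transcription factor HSF1 binds heat shock elements, inverted repeats of GAA, in the promoters of many of these genes.

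The arrays of replicate 3 stood apart from the others in both groups. On the first principal component, the axis of most variance over the genes (42.2%), ambient and negative pressure replicate 3 lay at 20.3 and 31.1. The other arrays lay at -18.3 to -9.07 on it. The second component (30.9%) divided the groups, at 10.9 to 23.6 under ambient and -15.6 to -15.2 under negative pressure. Pearson's r over all probe sets except controls was 0.9965 between ambient pressure replicates 1 and 2 and 0.9958 between negative pressure replicates 1 and 2. It was 0.989 to 0.9915 for pairs within a group that included replicate 3. Array medians lay between 3.81 and 3.89 on the log2 scale. Of 8 keratinocyte markers, 4 were measured by a probe set of their own: KRT5 (mean 10.94), KRT14 (12.23), SFN (12.50) and DSG3 (8.35). Their mean level was 10.88 to 10.91 in the ambient pressure arrays and 11.11 to 11.13 in the negative pressure arrays, and none of the 4 passed the test. Median signals of the marker lists of fibroblasts (3.12, 6 of 6 measured), melanocytes (3.89, 4 of 5), endothelial cells (4.36, 4 of 4) and immune cells (2.43, 3 of 5) were low, the highest being COL1A1 at 6.78 and MITF at 6.08. Of these 17 genes only the endothelial CDH5 passed, with a difference of -0.80 (limma, adjusted p = 0.0325). A part of cell type or of replicate 3 in the chaperone results was not tested beyond the values given with them.

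Under negative pressure 4 of the 70 chaperone genes rose: DNAJA4, HSPA4L, DNAJB4 and DNAJB2, each by 1.68-fold to 2.10-fold. All 4 act around the HSP70 cycle, 3 as J-domain proteins and HSPA4L as a nucleotide exchange factor of the HSP110 type. No member fell. Calls were made with limma at an adjusted p under 0.05, adjusted by the Benjamini-Hochberg method over all 19775 genes, and a difference is the mean log2 value under negative pressure minus that under ambient pressure. The 4 members are 5.71% of the 70, where 0.607% of all genes were called higher, and 0 members were called lower where 0.314% of all genes were. At an unadjusted p under 0.05 there were 20 members, 16 higher and 4 lower, or 28.6% where 11.7% of all genes reached it. RNA came from whole cultures, in which fewer cells expressing a gene and less of its RNA per cell cannot be told apart, and the p-values measure the spread between these 3 cultures per group.

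The differences of the other members were smaller, and outside the DNAJC family most lay above 0. The median difference of the 70 was 0.07 (range -0.55 to 1.07), beside 0.01 over all genes, and 44 members (62.9%) lay above 0, beside 53.4% of all genes. The members' median deviation on an array from their 6-array means had an SD of 0.0648 between arrays of a group. Its groups overlapped: it was -0.0181 in treated replicate 3, under the -0.0082 and 0.0001 of control replicates 1 and 2. A median of this size was therefore no larger than the spread between arrays. In 18 members every negative pressure value exceeded every ambient pressure value, which is 25.7% where 10.3% of all genes did so, and in 5 members (7.14%, background 6.96%) the reverse held. Medians by family were 0.27 for HSP70 and HSP110 (9 of 10 above 0), 0.26 for HSP90 (2 of 2), 0.15 for DNAJA (3 of 4), 0.10 for DNAJB (8 of 10), 0.33 for the mitochondrial chaperonin (2 of 2) and 0.28 for the co-chaperones (7 of 8). They were 0.06 for CCT (6 of 9) and -0.08 for DNAJC (7 of 25). The test of a difference between families was not made.

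**Figure D1:**
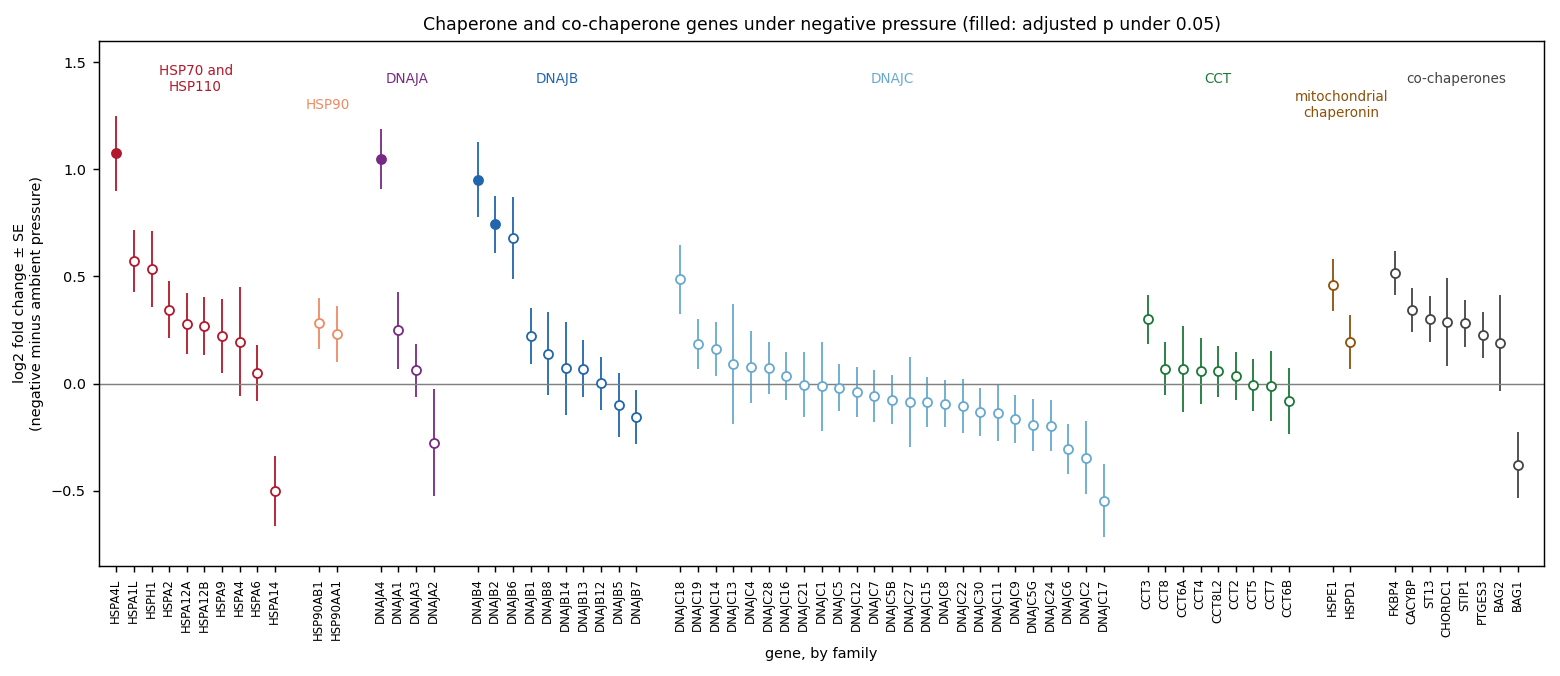
Log2 difference of each of the 70 genes, negative minus ambient pressure, by family, with its standard error and filled points for the 4 genes past an adjusted p of 0.05. The 4 filled points lie between 0.74 and 1.07, and 18 of 25 DNAJC genes lie below 0.

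The replicate 3 cultures of both groups deviated together from their group means, while the numbers did not tell replicate 1 from 2. A fit with the replicate block called more members. It gave 10 members higher (14.3%, where 2.87% of all genes were) and 2 lower (2.86%, where 2.06% of all genes were). Beyond the 4 genes above these were DNAJB6, HSPH1, HSPA1L, HSPE1, FKBP4 and DNAJC18 on the higher side, and HSPA14 and DNAJC17 on the lower side. With both replicate 3 arrays left out, 7 members were higher (background 1.12%): the same 4 with DNAJB6, FKBP4 and HSPA1L. No member was then called lower (background 0.759%). In either direction 29 members (41.4%, beside 17.6% of all genes in that fit) had an unadjusted p under 0.05. No member was called when ambient pressure replicate 1 or 2 or negative pressure replicate 1 or 2 was left out. Those fits called only 5 to 14 of all 19775 genes higher and 2 to 4 lower. In them 13 to 16 members (18.6% to 22.9%) had an unadjusted p under 0.05, beside 8.34% to 9.8% of all genes. Without ambient pressure replicate 3, DNAJA4 and DNAJB2 passed, where 56 of all genes were called higher and 46 lower. Without negative pressure replicate 3, DNAJA4 and DNAJB6 did, where 102 of all genes were called higher and 43 lower.

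DNAJA4, a type I J-domain partner of HSP70, roughly doubled. Its log2 values were 8.26, 8.42 and 8.19 in control replicates 1 to 3 and 9.38, 9.53 and 9.11 in the treated replicates. Every treated array lay above every control array, with the 2 groups well separated. Means rose from 8.29 ± 0.12 to 9.34 ± 0.21 (SD, n = 3 each), a difference of 1.05 ± 0.14 (SE) or 2.07-fold (limma, adjusted p = 0.0182). It has 3 other probe sets of its own, at differences of 1.13, 1.24 and 0.09. The call was lost when control replicate 1 (limma, adjusted p = 0.0898) or 2 (0.0983) or treated replicate 1 (0.0818) or 2 (0.0925) was left out, at differences of 0.96 to 1.17 over the 6 such fits.

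DNAJB4, a type II J-domain protein also known as HLJ1, had values of 6.65, 6.40 and 5.94 in the controls and 7.27, 7.39 and 7.18 in the treated cultures. The control cultures were spread more widely than the treated ones, replicate 3 lowest, and the groups did not overlap. The mean rose from 6.33 ± 0.36 to 7.28 ± 0.10 (SD, n = 3), a difference of 0.95 ± 0.17 (SE; limma, adjusted p = 0.0452), and another probe set gave 0.73. DNAJB2, a J-domain protein that binds ubiquitin and passes clients to the proteasome, had 5.56, 5.63 and 5.86 under ambient and 6.43, 6.27 and 6.59 under negative pressure. Here replicate 3 was the highest in each group, and again there was no overlap. The difference was 0.74 ± 0.13 (SE; limma, adjusted p = 0.0396) on its only probe set. Leaving out any 1 array ended the call of DNAJB4, at adjusted p from 0.0624 to 0.180, and that of DNAJB2, at 0.0761 to 0.216, except that DNAJB2 passed without ambient pressure replicate 3 (limma).

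DNAJB6, a J-domain protein that keeps polyglutamine proteins from aggregating, had 7.18, 7.01 and 7.01 under ambient and 8.02, 7.95 and 7.26 under negative pressure. Treated replicates 1 and 2 were close to each other, while treated replicate 3 lay only just above the controls. Its difference of 0.68 ± 0.19 (SE) did not pass (limma, adjusted p = 0.179) but did with the replicate block (adjusted p = 0.0185). A pair of brighter probe sets, annotated to both TMEM135 and DNAJB6, were at -0.16 and 0.10. DNAJB1, the main heat-inducible J-domain protein of the cytosol, had a difference of 0.22 ± 0.13 (SE; limma, adjusted p = 0.601), and DNAJA1, its type I counterpart, 0.25 ± 0.18 (SE; adjusted p = 0.707). The values of DNAJA2, another type I protein, and of DNAJA3, its mitochondrial relative, were -0.28 ± 0.25 and 0.06 ± 0.12 (SE; limma, adjusted p = 0.793 and 0.922). The lowest difference of the DNAJB genes was that of DNAJB7 at -0.16, on a dim probe set.

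**Figure D2:**
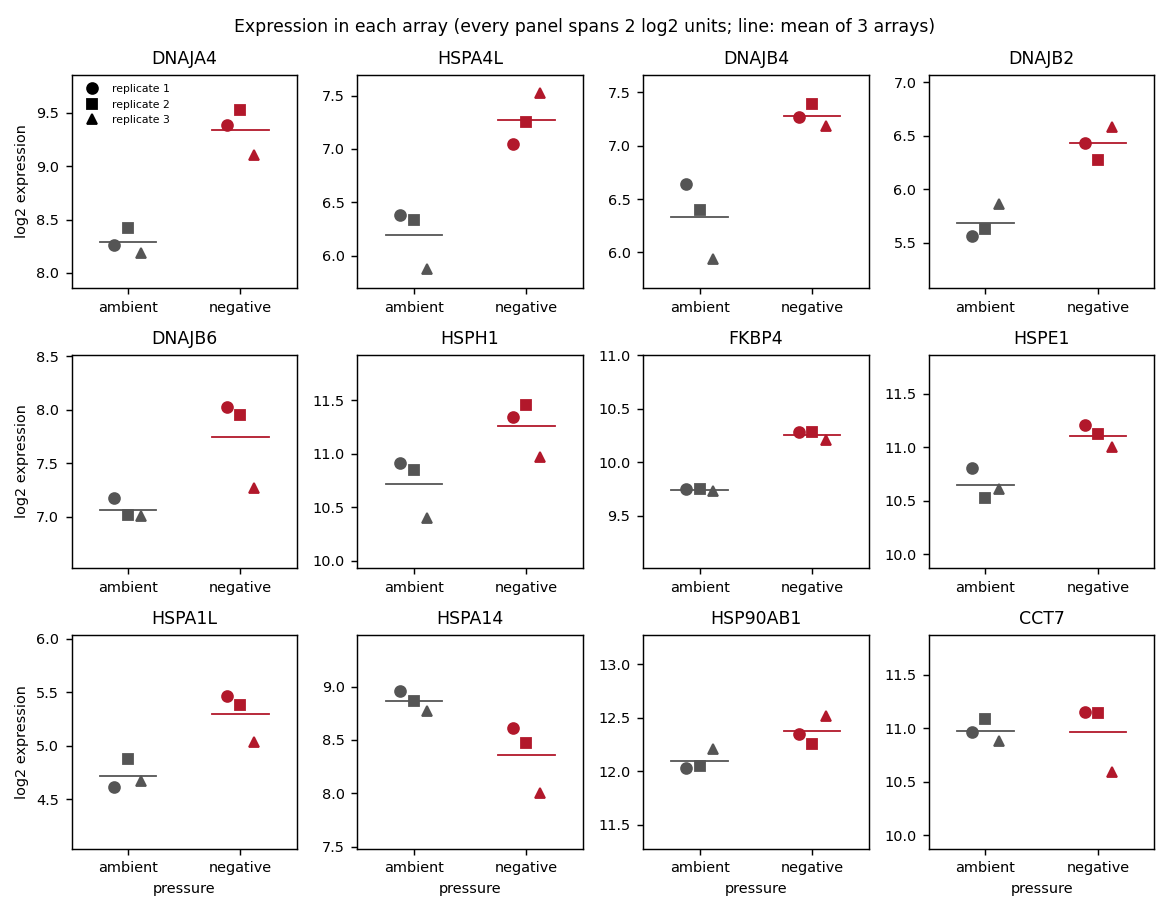
Log2 values of 12 of the genes on each of the 6 arrays, ambient pressure against negative pressure, with a symbol for each replicate number and a line at the mean of each 3 arrays. In DNAJA4, HSPA4L, DNAJB4 and DNAJB2 the 3 treated arrays lie above the 3 controls, whereas in CCT7 the groups overlap.

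Promoter sequences were searched for the letters of a heat shock element, taken as 3 facing units, and for its 2-unit core. The 250 bases before each RefSeq start (GRCh38.p14) were searched on both strands for 2 facing units, GAANNTTC or TTCNNGAA, and for 3, GAANNTTCNNGAA or TTCNNGAANNTTC, of which each 3-unit match also holds a 2-unit match. Of the 4 called genes, DNAJA4, HSPA4L and DNAJB4 held a 2-unit match and none a 3-unit match, and DNAJB2 had neither in its windows. A gene with several starts has several windows and so more places for a match. The 4 genes had 9 windows, of which 3 (33.3%) held 2 units, beside 20.2% of the members' windows and 11.6% of all windows. Shown are 60 bases in the direction of the gene, with the match in capitals, for these 3 genes, for DNAJB1, for DNAJB6, and for HSP90AA1 and HSPD1 as members with 3 units. They lie at chr15:78264484-78264543 (DNAJA4, plus strand), chr4:127782126-127782185 (HSPA4L, plus), chr1:78004815-78004874 (DNAJB4, plus), chr19:14518411-14518470 (DNAJB1, minus), chr7:157336849-157336908 (DNAJB6, plus), chr14:102087097-102087156 (HSP90AA1, minus) and chr2:197500031-197500090 (HSPD1, minus).
DNAJA4: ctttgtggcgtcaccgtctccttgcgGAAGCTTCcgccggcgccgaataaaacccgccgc
HSPA4L: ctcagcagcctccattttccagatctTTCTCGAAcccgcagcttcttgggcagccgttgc
DNAJB4: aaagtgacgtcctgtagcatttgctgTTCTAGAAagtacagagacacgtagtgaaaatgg
DNAJB1: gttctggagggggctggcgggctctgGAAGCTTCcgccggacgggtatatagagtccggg
DNAJB6: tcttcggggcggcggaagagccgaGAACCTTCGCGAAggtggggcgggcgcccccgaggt
HSP90AA1: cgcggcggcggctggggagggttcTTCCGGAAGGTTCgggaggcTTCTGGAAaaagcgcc
HSPD1: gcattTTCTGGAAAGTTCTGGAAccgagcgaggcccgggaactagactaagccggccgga
DNAJA4 and DNAJB1 carry the same 8 letters, 52 and 47 bases before their starts. Their log2 differences between the pressures were 1.05 and 0.22. A link between a match and the difference of its gene was not tested. Over the members, 61 genes had a window (84 windows), of which 17 (27.9%) held 2 units and 6 (9.84%) held 3 units. The shares were 14% and 0.557% over the 27305 genes in the table. The 6 members with 3 units were CHORDC1, DNAJB6, HSP90AA1, HSP90AB1, HSPA6 and HSPD1, whose differences ran from 0.05 (HSPA6) to 0.68 (DNAJB6), none passing the test. CCT genes held a match in 2 of 8 and DNAJC genes in 1 of 21. A match describes letters only, and its absence says only that these letters are not in the window.

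Among the HSP70 and HSP110 genes, HSPA4L had the largest difference. HSPA4L belongs to the HSP110 group and exchanges the nucleotide on HSP70. Its values were 6.38, 6.34 and 5.87 in the controls and 7.04, 7.25 and 7.52 in the treated cultures. The treated arrays were all higher, and replicate 3 was the lowest control but the highest treated culture. The mean rose from 6.20 ± 0.28 to 7.27 ± 0.24 (SD, n = 3), a difference of 1.07 ± 0.17 (SE) or 2.10-fold (limma, adjusted p = 0.0296), with 0.63 on another probe set. Leaving out any 1 array ended the call, with adjusted p from 0.0574 to 0.136 (limma).

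HSPH1, the larger heat-inducible HSP110 protein, had 10.91, 10.85 and 10.40 under ambient and 11.35, 11.45 and 10.97 under negative pressure. Replicate 3 was lowest in each group, and no control reached a treated value. Its difference of 0.54 ± 0.18 (SE) passed with the replicate block (adjusted p = 0.0178) but not without it (limma, adjusted p = 0.252). Its 2 other probe sets gave 0.54 and 0.71, and their mean with the brightest gave 0.60 (adjusted p = 0.0457). HSPA4, the constitutive HSP110 protein, differed by 0.19 ± 0.25 (SE; limma, adjusted p = 0.872).

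HSPA1L, an HSP70 gene beside HSPA1A in the major histocompatibility region, had 4.62, 4.88 and 4.67 under ambient and 5.46, 5.38 and 5.04 under negative pressure. These are dim values with no overlap between the groups. The difference of 0.57 ± 0.14 (SE) had an adjusted p of 0.132 in limma and of 0.0221 with the replicate block, and another probe set was at -0.02. HSPA2, an HSP70 known for its role in sperm development, had 7.06, 7.245 and 6.91 under ambient and 7.55, 7.44 and 7.26 under negative pressure. All treated values were slightly above all controls, at 0.35 ± 0.13 (SE; limma, adjusted p = 0.343). HSPA6, which is silent in most unstressed cells and strongly induced by heat, had a mean of 4.06 and a difference of 0.05 ± 0.13 (SE; limma, adjusted p = 0.948). Its other probe set, also dim, gave 0.28 without overlap of the groups (limma over all probe sets, adjusted p = 0.487). HSPA9, the mitochondrial HSP70, differed by 0.22 ± 0.17 (SE; limma, adjusted p = 0.742).

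HSPA14, an HSP70-like protein that works with DNAJC2 at the ribosome, lay on the other side. Its values were 8.96, 8.86 and 8.77 in the controls and 8.62, 8.47 and 8.01 in the treated cultures. The treated values were lower throughout, with replicate 3 farthest down. The difference was -0.50 ± 0.16 (SE; limma, adjusted p = 0.244; with the replicate block 0.0355), and its other probe sets gave -0.15 and -0.18. DNAJC2 itself was at -0.35 ± 0.17 (SE), with overlapping groups and an unadjusted p of 0.071 in limma.

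The inducible HSP70 genes HSPA1A and HSPA1B have nearly identical coding sequences and were read only by shared probe sets, which were tested in a fit over all 54613 probe sets, of which 0.48% passed. The probe set annotated to HSPA1L, HSPA1B and HSPA1A together had 11.51, 11.51 and 11.41 under ambient and 12.22, 12.19 and 12.14 under negative pressure. The 3 arrays of each group nearly coincided, and this probe set was higher by 0.71 ± 0.11 (SE; limma, adjusted p = 0.0341; with the replicate block 0.0147). The 2 probe sets annotated to HSPA1B and HSPA1A gave 0.37 and 0.55 (limma, adjusted p = 0.488 and 0.754; with the replicate block 0.157 and 0.0461). The 4 probe sets annotated to HSPA8, the constitutive HSP70, with the small nucleolar RNAs SNORD14C and SNORD14D lay at -0.27 to -0.12. Which of the annotated genes gave a signal cannot be told apart on shared probe sets.

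Both cytosolic HSP90 genes lay slightly higher under negative pressure, without passing the test. HSP90AB1, the constitutive form, had 12.03, 12.05 and 12.20 under ambient and 12.35, 12.26 and 12.52 under negative pressure. Replicate 3 was highest in both groups, and the groups did not overlap. The difference was 0.28 ± 0.12 (SE; limma, adjusted p = 0.408), with 0.47 and 0.45 on other probe sets. HSP90AA1, the inducible form, had 12.80, 12.78 and 12.51 under ambient and 12.93, 13.06 and 12.80 under negative pressure. The groups overlapped, treated replicate 3 lying just under control replicate 1, at a difference of 0.23 ± 0.13 (SE; limma, adjusted p = 0.571), and its 3 other probe sets gave 0.29, 0.29 and 0.43.

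Of the 8 co-chaperones, 5 (62.5%, beside 11.7% of all genes) had an unadjusted p under 0.05, and none passed after adjustment. FKBP4, the immunophilin FKBP52 that binds HSP90 in steroid receptor complexes, had 9.75, 9.75 and 9.73 under ambient and 10.28, 10.28 and 10.21 under negative pressure. The arrays of each group nearly coincided, with no overlap between the groups. The difference was 0.52 ± 0.10 (SE; limma, adjusted p = 0.0643; with the replicate block 0.0195), and other probe sets gave 0.49 and, where dim, -0.25 and -0.35. CACYBP, which binds the ubiquitin ligase SIAH1, had 10.80, 10.83 and 10.76 under ambient and 11.13, 11.17 and 11.13 under negative pressure, again clear of each other, at 0.34 ± 0.10 (SE; limma, adjusted p = 0.208).

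STIP1, ST13 and PTGES3, which act on HSP70, HSP90 or both, gave differences of similar size. STIP1, or HOP, which holds both chaperones at once, had 9.50, 9.50 and 9.60 under ambient and 9.89, 9.81 and 9.73 under negative pressure, a difference of 0.28 ± 0.11 (SE; limma, adjusted p = 0.349). ST13, or HIP, which stabilises HSP70 in its client-bound state, had 10.33, 10.35 and 10.26 against 10.66, 10.65 and 10.54, at 0.30 ± 0.11 (SE; adjusted p = 0.297). PTGES3, or p23, which holds HSP90 closed, had 11.83, 11.83 and 11.74 against 12.09, 12.02 and 11.97, at 0.23 ± 0.11 (SE; limma, adjusted p = 0.472). In all 3 genes the treated arrays lay above the controls without overlap on the brightest probe set. Other probe sets of ST13 gave 0.15 and 0.17 with overlapping groups, and another of STIP1 gave 0.41.

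The BAG proteins, which bind HSP70, lay on opposite sides of 0. BAG1, a nucleotide exchange factor, had 7.68, 7.87 and 8.18 under ambient and 7.58, 7.35 and 7.66 under negative pressure. The highest treated value stayed just under the lowest control, at -0.38 ± 0.15 (SE; limma, adjusted p = 0.365). BAG2, an inhibitor of the ubiquitin ligase CHIP, differed by 0.19 ± 0.22 (SE; limma, adjusted p = 0.855), and CHORDC1, an HSP90 partner with zinc-binding domains, by 0.29 ± 0.20 (SE; adjusted p = 0.700).

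The mitochondrial chamber is made of HSPD1, the HSP60 ring, and HSPE1, its lid. HSPE1 had 10.81, 10.53 and 10.61 under ambient and 11.21, 11.12 and 11.00 under negative pressure. No treated array overlapped the controls, and the difference was 0.46 ± 0.12 (SE; limma, adjusted p = 0.151; with the replicate block 0.0360). HSPD1, which shares a bidirectional promoter with HSPE1, differed by 0.19 ± 0.13 (SE; limma, adjusted p = 0.655), with overlapping groups, and by 0.44 on another bright probe set and -0.24 to 0.14 on 3 dim ones.

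The CCT ring genes had a median difference of 0.06, and none passed the test. An unadjusted p under 0.05 was reached by 1 of 9 (11.1%, beside 11.7% of all genes). CCT3 was that gene, with 10.80, 10.91 and 10.74 under ambient and 11.18, 11.17 and 11.00 under negative pressure. Its groups did not overlap, and the difference was 0.30 ± 0.11 (SE; limma, adjusted p = 0.339). The other subunits of the ring that were measured on their own, CCT2, CCT4, CCT5, CCT6A, CCT7 and CCT8, had differences of 0.03, 0.06, -0.01, 0.07, -0.01 and 0.07, with standard errors of 0.11 to 0.20. Signs this close to 0 turned with the normalization, the probe set or a left-out array. Other, less bright probe sets gave 0.04 for CCT2, 0.21 for CCT4, 0.40 for CCT5, 0.35 for CCT6A and -0.11 for CCT8. CCT6B and the CCT8-like CCT8L2 were dim, at -0.08 and 0.06. TCP1, the remaining subunit, was read by 3 probe sets shared with SNORA29, at 0.06, 0.46 and 0.37.

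Many members had their lowest value of both groups in replicate 3. In 34 of 70 (48.6%) the replicate 3 array was lowest in both groups, beside 25.4% of all genes. Bright probe sets showed this more often: it held for 49% of all genes with a mean signal of 10 or more, for 16 of the 19 members that bright (84.2%) and for 8 of the 9 CCT genes. Differences taken within a replicate number had medians over the members of 0.10, 0.14 and 0.10 in replicates 1, 2 and 3, with 45, 48 and 42 members above 0 (64.3%, 68.6% and 60%, beside 58.2%, 50.5% and 49.9% of all genes). All 3 differences were above 0 in 29 members (41.4%, beside 22.1% of all genes) and below 0 in 10 (14.3%, beside 16.7%). The CCT medians by number were 0.08, 0.06 and -0.09.

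**Figure D3:**
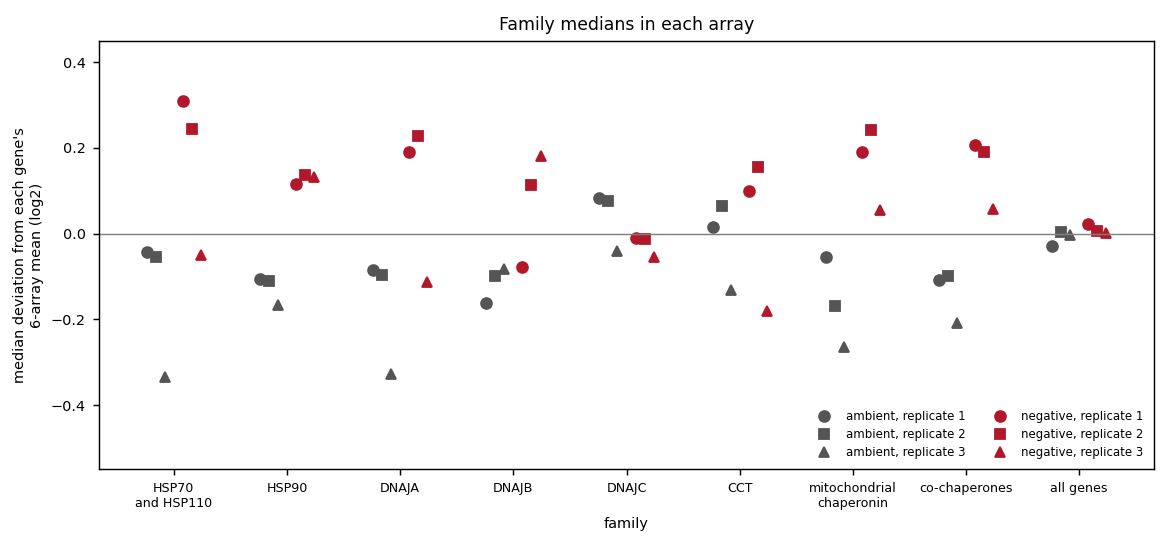
Median deviation of each family's genes, and of all genes, on each of the 6 arrays from the gene's own mean over the 6 arrays (log2), with a symbol for each replicate number and a colour for each group. Replicate 3 lies lowest in both groups for CCT, DNAJA, DNAJC, HSP70 and HSP110, the mitochondrial chaperonin and the co-chaperones, while all genes lie near 0 on every array.

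The DNAJC family, J-domain proteins with varied other domains, had 18 of 25 members below 0 and no called member. Above 0 lay 28% of them, beside 53.4% of all genes. An unadjusted p under 0.05 was reached by 3 (12%, beside 11.7% of all genes). DNAJC17, found with the spliceosome, had 6.18, 6.06 and 5.64 under ambient and 5.32, 5.66 and 5.27 under negative pressure, which overlapped at ambient replicate 3. Its difference was -0.55 ± 0.17 (SE; limma, adjusted p = 0.222; with the replicate block 0.0304). DNAJC6, the auxilin that strips clathrin from vesicles, had 6.16, 5.99 and 5.98 against 5.63, 5.86 and 5.72, lower throughout. The difference was -0.30 ± 0.12 (SE; adjusted p = 0.347 in limma), and 0.19 on another, dim probe set. DNAJC18, a J-domain protein of the endoplasmic reticulum membrane, had 5.08, 5.10 and 5.287 under ambient and 5.293, 5.87 and 5.76 under negative pressure. The lowest treated value only just exceeded the highest control, and the difference was 0.49 ± 0.16 (SE; limma, adjusted p = 0.258; with the replicate block 0.0494). DNAJC7, which binds both HSP70 and HSP90, was at -0.06 ± 0.12 (SE; limma, adjusted p = 0.928).

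The members can also be set out by probe signal, which is no measure of one transcript against another. Of the 19 members with a mean signal of 10 or more, 17 lay above 0 with a median of 0.23 and none was called, although 6 (31.6%) had an unadjusted p under 0.05. Over all 722 genes that bright, 401 lay above 0, the median was 0.02 and 78 (10.8%) had an unadjusted p under 0.05. All 4 called members lay among the 38 between the median gene's mean (4.997) and 10. None of the 13 members under that mean had an unadjusted p under 0.05.

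**Figure D4:**
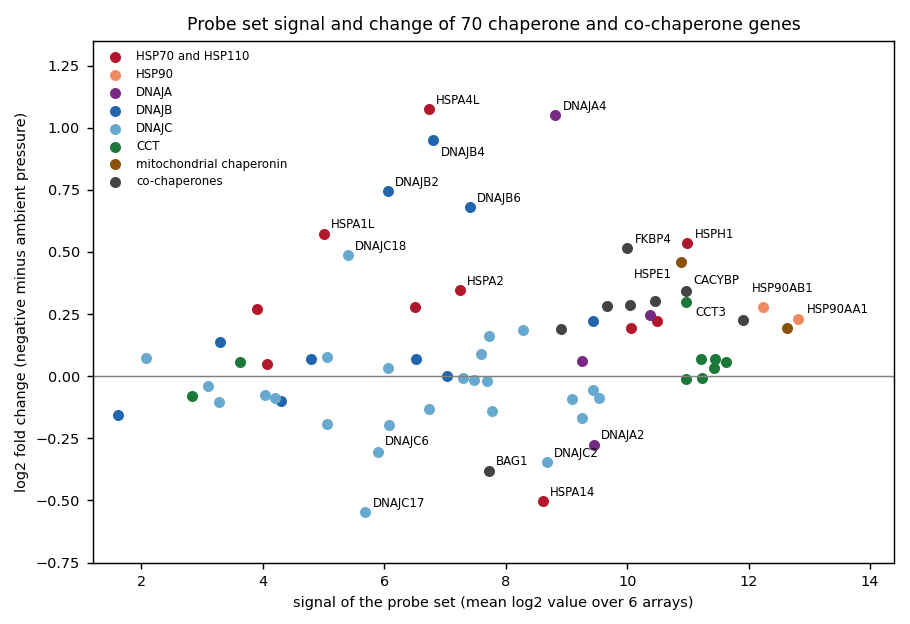
Log2 difference of each of the 70 genes against the mean log2 signal of its probe set over the 6 arrays, coloured by family. The 4 called genes lie at signals between 5 and 10, and 17 of the 19 genes at 10 or more lie above 0.

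Other genes of the same pathways, listed by known function, gave few calls outside the list of small heat shock proteins and related chaperones. These lists, too, were chosen with earlier results of these data known. Over all genes 11.7% had an unadjusted p under 0.05. Of 12 measured genes of that first list, 4 were called higher and 0 lower (median 0.16), where 0.607% of all genes were called higher and 0.314% lower. The small heat shock proteins HSPB1 and HSPB8 rose by 1.22 and 1.10 (limma, adjusted p = 0.00538 and 0.0132). The secreted chaperone CLU rose by 1.27 and the collagen chaperone SERPINH1 by 0.96 (limma, adjusted p = 0.00466 and 0.0127). None of 8 HSF factors and regulators passed, with 1 at an unadjusted p under 0.05, 0 with the replicate block and a median of 0.06. HSF1 was at 0.26 ± 0.11 (SE; limma, adjusted p = 0.374). None of 29 further HSP70 and HSP90 co-chaperones passed, with 4 at an unadjusted p under 0.05, a median of 0.07 and BAG3, the stress-induced BAG protein, at 0.16 (adjusted p = 0.876). With the replicate block the immunophilin PPID (0.46, adjusted p = 0.0389) and the myosin chaperone UNC45A (0.47, adjusted p = 0.0344) passed.

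Partners and clients of the CCT ring gave 1 call. None of 14 prefoldin genes and CCT partners passed (2 at an unadjusted p under 0.05, median 0.03), and TXNDC9, a regulator of CCT, was at -0.53 (limma, adjusted p = 0.0610; with the replicate block 0.0178). Of 9 CCT substrates measured 1 fell, the tubulin gene TUBB6 by 0.63 on the log2 scale (limma, adjusted p = 0.0386), and the median was 0.01. The 6 endoplasmic reticulum chaperones left out of the members had a median of -0.04, none with an unadjusted p under 0.05 and none called by either fit, and HSPA5, the HSP70 of that compartment, was at -0.10 (limma, adjusted p = 0.885).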

How the data were processed

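Total RNA from 6 cultures was measured on Affymetrix arrays. The deposited values are log2 expression levels. Per the submitters' processing notes the authors used RMA and version 1.2 of Affymetrix Expression Console. The sources used here give no scan dates, batches or filters. Of 54675 probe sets, 62 controls were left out. Probe sets with 1 gene symbol (41091) gave 19775 genes, each by its brightest probe set. Another 1801 carried several symbols and 11721 none. Differences were tested with limma 3.58.1 in R 4.3.3 (lmFit and eBayes, Benjamini-Hochberg over all genes), which was also tested on simulated data. There it missed a part of the 2-fold changes and most smaller ones, and its pass mark was lowered after that was seen, so genes not called are not shown to be unchanged. The numbering came from the labels, and residuals of cultures with the same number correlated at 0.274, 0.270 and 0.532. Ambient replicate 1 correlated more with negative replicate 2 (0.425), so the numbers set replicate 3 apart but do not tell 1 from 2. The replicate block was fitted as an alternative. Others changed normalization, probe set choice, variance model and arrays. Members and lists were chosen with earlier results of these data known. Named genes were those with an unadjusted p under 0.05, the extremes of each family and a fixed list of chaperones; genes of the other lists that passed with the replicate block alone, TXNDC9 among them, and the promoters shown were chosen after their values were seen. Sequences are from RefSeq, GRCh38.p14; of the 70 members 61 matched. Protein sequences were not used here.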

Additional observations from a re-analysis of the deposited data

How the results depend on the processing

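With 182 genes and 4 members called, the replicate block called 976 and 12, array weights 1145 and 10, both replicate 3 arrays left out 372 and 7, and leaving out 1 array 7 to 145 genes and 0 to 2 members. The probe set with the largest variance called 2 members, at a median difference of 0.15; DNAJB2 and DNAJB4 were lost (limma, adjusted p = 0.0639 and 0.0601). DNAJB4 was also lost by median centring (0.0770) and HSPA4L by the mean of its probe sets (0.0546, limma). Signs near 0 turned: CCT2 to -0.0226 by repeated quantile normalization, CCT5 to 0.0132 by array weights, 0.0441 without both replicate 3 arrays, 0.20 by the mean of probe sets and 0.40 by the largest variance, CCT7 to 0.0494 and 0.13 by the first 2 of these, CCT8 to -0.0226 and -0.11 by the last 2, and DNAJA3 to -0.0231 by the largest variance. Leaving out 1 array gave -0.0087 to 0.0862 for CCT2, -0.0296 to 0.21 for CCT4, -0.0587 to 0.0804 for CCT5, -0.064 to 0.29 for CCT6A, -0.19 to 0.0395 for CCT6B, -0.11 to 0.17 for CCT7, -0.0103 to 0.13 for CCT8, -0.13 to 0.0036 for DNAJC7, -0.0244 to 0.47 for HSPA4 and -0.0123 to 0.14 for HSPA6. Over the alternatives, the differences of the 41 named members kept direction and side of the threshold in 580 cases, newly passed in 20, no longer passed in 25 and reversed in 29; the cause was not tested. With 3 arrays a group and no detection calls used, dim probe sets limit the precision.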
